A study of Drosophila melanogaster with 19 samples.

Results

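The genes described here encode the core machinery of the small interfering RNA (siRNA) and microRNA pathways of Drosophila. They were measured by RNA sequencing in S2R+ cells, an established line derived from embryos, after depletion of single subunits of the dREAM complex by RNA interference (RNAi). The set holds the genes drosha, pasha, Dcr-1, loqs, AGO1, Dcr-2, r2d2, AGO2, Ars2 and Tudor-SN. They were chosen by name from the pathway and not by a cut on their values, though with earlier results of these data known. These are 10 of 15021 gene symbols in the deposited table and 49 of its 36421 transcripts assigned to annotated genes, and all 10 were abundant enough to be tested. Cells received double-stranded RNA (dsRNA) against mip40, mip120 or mip130 (2 libraries each) or against E2F2 (1 library), and control cells received dsRNA against GFP (2 libraries). All 5 groups were treated on each of 4 days at 25 °C, with dsRNA at 30 µg/ml that was then diluted to 10 µg/ml. The control cells were thus also exposed to dsRNA, and cells without any dsRNA are not among the groups. The strategy for depletion itself runs through the siRNA pathway. RNA was selected with oligo-dT, so the values describe messenger RNA and not small RNAs.

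In flies the microRNA pathway starts in the nucleus, where the nuclease Drosha and its RNA-binding partner Pasha cut hairpins out of primary transcripts. Dcr-1, with the dsRNA-binding protein Loqs, cuts the hairpin into a microRNA duplex, which is loaded mainly into AGO1. Long dsRNA is cut by another Dicer enzyme, Dcr-2, whose partner R2D2 helps to load siRNAs into the slicing Argonaute AGO2, and this route also serves antiviral defence. Ars2 binds the nuclear cap-binding complex and acts in both routes, and Tudor-SN is a nuclease-domain protein found in silencing complexes. dREAM is a chromatin-bound repressor complex that joins E2F and Myb transcription factors with retinoblastoma-family and Mip proteins.

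Values are FPKM, that is fragments scaled to transcript length and to library size, summed over the transcripts of a gene. Sequencing depth is unknown, because FPKM hold no counts. FPKM sums over annotated transcripts ran from 588531 to 688463 per library, and replicate libraries had Pearson r between 0.967 and 0.985 across tested genes. The targeted messenger RNA was left at 3.96% (mip40), 59.6% (mip120), 16.4% (mip130) and 9.45% (E2f2) of its GFP mean. The line has features of blood cells, and 11 of 14 hemocyte markers were abundant enough to be tested. Their summed level was 458 and 460.2 FPKM in mip40, 401 and 393 FPKM in mip120, 440.2 and 443 FPKM in mip130 and 459.9 FPKM in E2F2 RNAi libraries, against 447 and 471 FPKM in GFP libraries. Single hemocyte markers moved in opposite directions within this sum. Pxn rose by 0.98 to 1.98 in the 4 comparisons and drpr by 1.03 to 1.19 in the mip groups. In mip120 RNAi Cg25C fell by 0.92, vkg by 0.88 and ush by 0.54. In mip130 RNAi vkg fell by 0.40, srp by 0.39, ush by 0.39 and Cg25C by 0.34. In E2F2 RNAi Cg25C fell by 0.66, vkg by 0.78 and drpr by 0.52 (log2, all past the test described below). All 5 germ cell markers were tested, and their sum lay between 13.6 and 49.3 FPKM in RNAi libraries, against 4.36 and 4.20 FPKM in GFP libraries. Of 6 markers each, 2 neuronal, 1 muscle and 0 fat body markers were abundant enough to be tested, with sums of 51.0 to 73.4, 2.65 to 5.29 and 0.0644 to 0.344 FPKM over all libraries, and no marker was listed at 0 in every library. The part of these markers in the results below was not tested. Fewer cells of a type and less RNA per cell cannot be told apart in such bulk samples. The labels do not state whether replicates are separate cultures, and the p-values therefore reflect the spread of these libraries alone, which could be technical.

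The members spanned a wide range of abundance in control cells. AGO2 averaged 199 ± 18.9 FPKM (SD, n = 2 here and below) and Tudor-SN 161 ± 1.11 FPKM, and both ranked above 90.9% of tested genes in every library. AGO1 followed at 90.3 ± 14.1 FPKM and Ars2 at 83.2 ± 5.33 FPKM, and the libraries of these neighbours overlapped. Next came r2d2 at 32.1 ± 2.20 FPKM and its partner Dcr-2 at 27.5 ± 0.796 FPKM, whose libraries did not overlap. The nuclear and microRNA enzymes were the least abundant. drosha averaged 13.6 ± 0.346 FPKM, loqs 8.70 ± 0.808 FPKM, Dcr-1 8.67 ± 0.317 FPKM and pasha 7.34 ± 0.523 FPKM, and loqs and Dcr-1 overlapped.

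**Figure D1:**
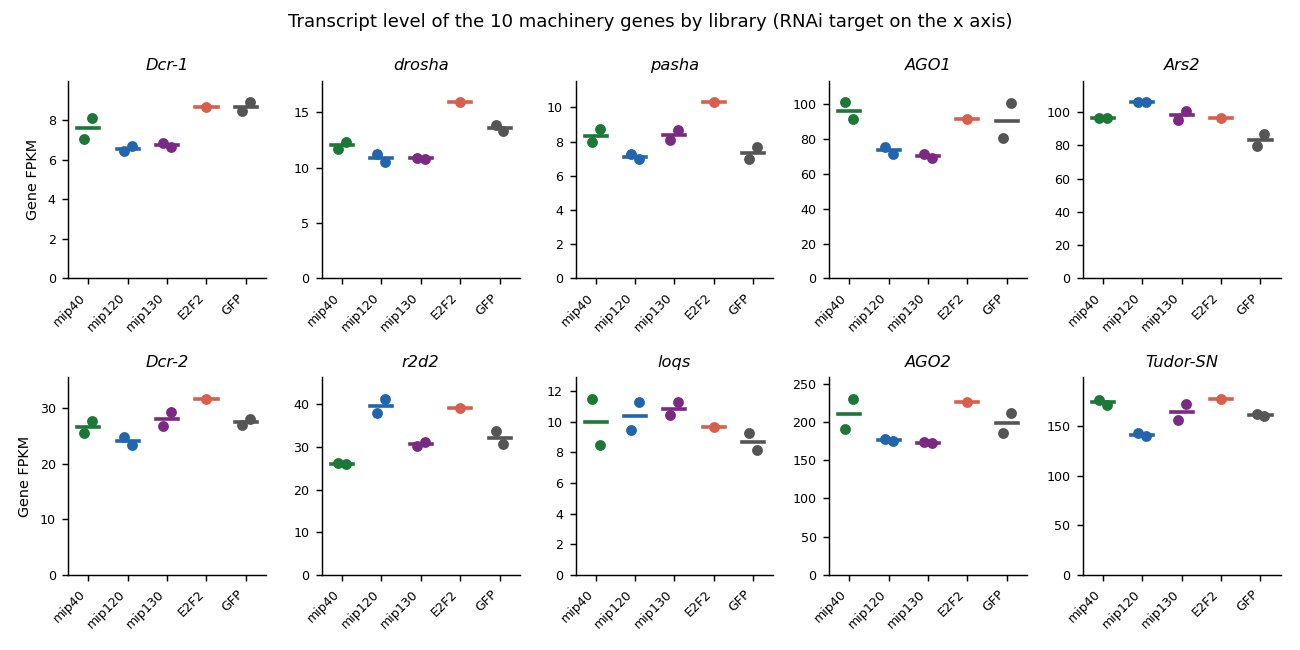
FPKM of each member in each of the 9 RNA libraries, on linear axes that start at 0, with RNAi groups to the left of GFP. Points are libraries and short lines are group means, and all 7 RNAi libraries of Ars2 lie above both GFP libraries.

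Each RNAi group was compared with the GFP group in 1 limma model over all tested genes, on log2(FPKM + 1), with Benjamini-Hochberg adjusted p below 0.05 as the call. In mip120 RNAi, 4 of 10 members passed, where 36.5% of all tested genes did. Ars2 and r2d2 rose and Dcr-1 and drosha fell. In mip130 RNAi, 4 members passed against a background of 36.2%, with a rise of Ars2 and falls of Dcr-1, drosha and AGO1. In E2F2 RNAi, only pasha passed, against a background of 12.0%. In mip40 RNAi, 0 members passed in limma against a background of 9.20%. There 3 members (r2d2, Ars2 and drosha) and 1976 of 7835 genes had an unadjusted p below 0.05, and no test of counts could be run as a second tool. The share of members called in mip120 and mip130 RNAi was near that of all genes, so the counts do not set the machinery apart.

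Sizes were also near those of other genes. The median absolute log2 change of the members was 0.17 in mip40, 0.26 in mip120, 0.22 in mip130 and 0.19 in E2F2 RNAi, beside 0.14, 0.24, 0.24 and 0.19 over all tested genes. No member reached an absolute log2 change of 1 in any of the 4 comparisons with GFP, a size reached by 138 to 383 called genes in each. The largest member changes were 0.29, 0.36, 0.35 and 0.45 in the same order of groups. Dcr-2, AGO2, loqs and Tudor-SN passed in none of the 4 comparisons.

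**Figure D2:**
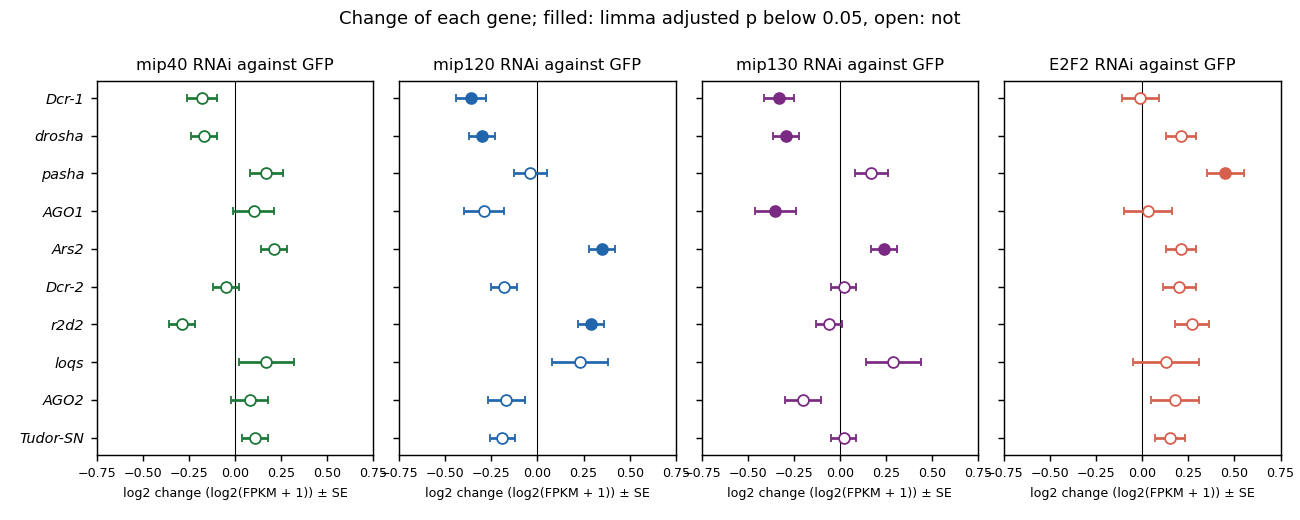
log2 change of each member in each RNAi group against GFP on the log2(FPKM + 1) scale, with bars of 1 SE of the limma model, filled where adjusted p was below 0.05. The 9 filled points lie between -0.36 for Dcr-1 in mip120 RNAi and 0.45 for pasha in E2F2 RNAi.

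drosha, the nuclease of the nuclear step, fell in mip120 and mip130 RNAi. It had 11.7 and 12.3 FPKM in mip40 RNAi libraries, 11.2 and 10.5 FPKM in mip120, 10.9 and 10.8 FPKM in mip130 and 15.9 FPKM in the E2F2 library, against 13.8 and 13.3 FPKM in GFP libraries. All 6 libraries of the mip groups lay below both GFP libraries, and the E2F2 library lay above both. The log2 change was -0.30 ± 0.07 in mip120 (SE, limma adjusted p = 0.0125) and -0.29 ± 0.07 in mip130 RNAi (adjusted p = 0.015), -0.17 ± 0.07 in mip40 (adjusted p = 0.173) and 0.21 ± 0.08 in E2F2 RNAi (adjusted p = 0.133). The mip120 call was lost without mip120 replicate 2 (adjusted p = 0.0852) or GFP replicate 1 (0.0559). The mip130 call was lost without mip130 replicate 1 (0.0558), mip130 replicate 2 (0.0711), GFP replicate 1 (0.0564) or GFP replicate 2 (0.0511).

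The difference between E2F2 RNAi and the mip groups was itself past the test for drosha. The E2F2 library had 15.9 FPKM, where the mip libraries ran from 10.5 to 12.3 FPKM. The log2 difference between E2F2 RNAi and the mean of the 3 mip groups was 0.47 ± 0.07 (limma adjusted p = 0.00561), and it stayed past the test in all 16 alternatives run. In this comparison 4 members passed, against a background of 29.2%, all of them higher in E2F2 RNAi, where 19.5% of tested genes were called higher. The E2F2 group is a single library, and its error is taken from the spread within the other groups.

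pasha, the partner of Drosha, rose in E2F2 RNAi. It had 7.96 and 8.74 FPKM in mip40, 7.28 and 6.96 FPKM in mip120, 8.08 and 8.68 FPKM in mip130 and 10.3 FPKM in E2F2 RNAi libraries, against 6.97 and 7.71 FPKM in GFP libraries. The mip40, mip130 and E2F2 libraries lay above both GFP libraries, and the mip120 libraries overlapped them. The change was 0.45 ± 0.10 in E2F2 RNAi (limma adjusted p = 0.04), 0.17 ± 0.09 in mip40 (0.276), -0.04 ± 0.09 in mip120 (0.766) and 0.17 ± 0.09 in mip130 RNAi (0.157). Against the mean of the mip groups, pasha was higher in E2F2 RNAi by 0.35 ± 0.09 (adjusted p = 0.0328).

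The pasha call against GFP held in 5 of 16 alternatives and that against the mip groups in 10 of 16. The median log2 change of all genes in E2F2 RNAi was 0.08, and when libraries were rescaled to bring it near 0 the adjusted p of pasha against GFP was 0.0823 (median-ratio scaling) or 0.106 (quantile normalization), with the same direction. The call against GFP was also lost without mip120 replicate 1 (adjusted p = 0.073), mip120 replicate 2 (0.0726), mip130 replicate 1 (0.0623), mip130 replicate 2 (0.0631), GFP replicate 1 (0.106) or GFP replicate 2 (0.0778). The call against the mip groups was lost without mip120 replicate 1 (0.0578), mip120 replicate 2 (0.0677) or mip130 replicate 1 (0.0597), and under both rescalings (0.0905 and 0.0626). The 5 pasha transcripts start at 3 sites on the forward strand of 3R (27443699, 27444150 and 27444711), and no transcript or start site of pasha passed the test. The RefSeq gene table lists kek6 as overlapping pasha, Rab4 as overlapping Dcr-2, CG7739 as overlapping AGO2 and asRNA:CR44599 as overlapping loqs. Without a stated strand setting, reads in such overlaps cannot be told apart.

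Drosha and Pasha act as a pair, so the ratio of their levels was read in each library. It was 0.682 and 0.713 in mip40, 0.653 and 0.665 in mip120, 0.739 and 0.803 in mip130 and 0.652 in E2F2 RNAi, against 0.504 and 0.578 in GFP libraries. All 7 RNAi libraries lay above both GFP libraries. This ratio and the others below were chosen after the values were seen and carry no test.

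Dcr-1, the microRNA Dicer, fell in mip120 and mip130 RNAi. It had 7.05 and 8.10 FPKM in mip40, 6.43 and 6.67 FPKM in mip120, 6.82 and 6.62 FPKM in mip130 and 8.63 FPKM in E2F2 RNAi libraries, against 8.45 and 8.89 FPKM in GFP libraries. The 6 mip libraries lay below both GFP libraries and the E2F2 library lay between them. The change was -0.36 ± 0.08 in mip120 (limma adjusted p = 0.0173), -0.33 ± 0.08 in mip130 (0.0252), -0.18 ± 0.08 in mip40 (0.251) and -0.01 ± 0.10 in E2F2 RNAi (0.988). The mip120 call was lost without mip120 replicate 1 (adjusted p = 0.086), mip120 replicate 2 (0.0686) or GFP replicate 2 (0.0838). The mip130 call was lost without mip130 replicate 1 (0.0723), mip130 replicate 2 (0.105), GFP replicate 1 (0.0531) or GFP replicate 2 (0.117).

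The Dcr-1 total joined transcripts from distant starts, and these differed. Dcr-1 lies on the reverse strand of 3R, and its known transcript starts at 18566813 (positions as in the deposited table, with no build stated there). That transcript had 4.77 and 6.32 FPKM in mip40, 3.31 and 3.78 FPKM in mip120, 4.16 and 4.50 FPKM in mip130 and 7.74 FPKM in E2F2 RNAi libraries, against 6.64 and 6.49 FPKM in GFP libraries. All mip libraries lay below both GFP libraries, and the E2F2 library lay above both. Summed by start site and fitted over all start sites, it fell by 0.74 ± 0.14 in mip120 (limma adjusted p = 0.0147, background 24.3% of start sites called) and by 0.51 ± 0.14 in mip130 RNAi (adjusted p = 0.0484, background 24.6%). The fall of the known transcript in mip120 RNAi was thus larger than that of the gene total.

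The other 3 Dcr-1 transcripts are new isoforms assembled by the authors, which start at 18576306, 9493 bp upstream. Their first exon ends at the same base as that of rumi, whose start lies 23 bp downstream, and they run past vret, CG17141 and CG31139 before reaching Dcr-1. They summed to 2.27 and 1.78 FPKM in mip40, 3.12 and 2.89 FPKM in mip120, 2.66 and 2.11 FPKM in mip130 and 0.893 FPKM in E2F2 RNAi libraries, against 1.80 and 2.40 FPKM in GFP libraries. Their share of the Dcr-1 total was 32.3% and 22.0% in mip40, 48.5% and 43.4% in mip120, 39.0% and 32.0% in mip130 and 10.3% in E2F2 RNAi, against 21.4% and 27.0% in GFP libraries. The share was highest in the mip120 libraries and lowest in the E2F2 library. Whether these isoforms are true Dcr-1 transcripts or products of the assembly cannot be told from FPKM, and both the share and the Dcr-1 total depend on it. No change of the new isoforms passed the test. rumi itself rose in mip130 RNAi, with 8.72 and 10.3 FPKM against 6.26 and 5.91 FPKM in GFP libraries (0.56 ± 0.14, adjusted p = 0.0203).

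At the start-site level the mip120 fall of Dcr-1 was lost without mip120 replicate 1 (adjusted p = 0.0735), mip120 replicate 2 (0.0568), GFP replicate 1 (0.0638) or GFP replicate 2 (0.0659). The mip130 fall lost its call in 11 of 16 alternatives, and each library of the mip120, mip130 and GFP groups was needed for it, with adjusted p between 0.0731 and 0.161 without one of them.

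loqs, whose product is the partner of Dcr-1, passed no test. It had 11.5 and 8.49 FPKM in mip40, 9.44 and 11.3 FPKM in mip120, 10.4 and 11.3 FPKM in mip130 and 9.62 FPKM in E2F2 RNAi libraries, against 9.27 and 8.12 FPKM in GFP libraries. Replicates of the mip40 group differed by more than the groups did, and 6 of 7 RNAi libraries lay above both GFP libraries. The largest change was 0.29 ± 0.15 in mip130 RNAi (limma adjusted p = 0.17). The loqs to Dcr-1 ratio was 1.63 and 1.05 in mip40, 1.47 and 1.70 in mip120, 1.52 and 1.71 in mip130 and 1.11 in E2F2 RNAi, against 1.10 and 0.913 in GFP libraries. It uses the Dcr-1 total and so depends on the new Dcr-1 isoforms. Of the 5 loqs transcripts, from starts at 13382463 and 13382648 on the forward strand of 2L, none passed.

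AGO1, the main carrier of microRNAs, fell in mip130 RNAi. It had 101 and 91.3 FPKM in mip40, 75.2 and 71.5 FPKM in mip120, 71.1 and 69.2 FPKM in mip130 and 91.5 FPKM in E2F2 RNAi libraries, against 80.3 and 100.3 FPKM in GFP libraries. The mip120 and mip130 libraries lay below both GFP libraries. The change was -0.35 ± 0.11 in mip130 (limma adjusted p = 0.0443), -0.29 ± 0.11 in mip120 (0.0809), 0.10 ± 0.11 in mip40 (0.614) and 0.03 ± 0.13 in E2F2 RNAi (0.916). The mip130 call held in 6 of 16 alternatives. It was lost without either mip40 library (0.0534 and 0.0531), either mip120 library (0.0696 and 0.0693), mip130 replicate 1 (0.114), mip130 replicate 2 (0.161) or GFP replicate 2 (0.18), and without GFP replicate 1 the mip120 fall passed (0.0174).

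AGO1 differed between mip40 RNAi and the other mip groups. It was higher in mip40 than in mip120 RNAi by 0.39 ± 0.11 (limma adjusted p = 0.0428, background 25.5%) and higher in mip40 than in mip130 RNAi by 0.45 ± 0.11 (adjusted p = 0.0289, background 25.0%). In the second of these, AGO1 was the only member past the test. Between mip120 and mip130 RNAi its difference was 0.06 ± 0.11 (adjusted p = 0.736). The difference from mip120 held in 5 of 16 alternatives, with values from 0.31 to 0.46. It was lost without any 1 of the 6 mip libraries, under quantile normalization (0.0507) and under median-ratio scaling (0.0635). It was also lost without a filter (0.0863), with only known transcripts (0.0794) and with a replicate block (0.0769). The difference from mip130 held in 10 of 16, with values from 0.38 to 0.83. It was lost without any 1 of the 4 libraries compared, without a filter (0.0611) and with a replicate block (0.0558).

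By start site, only the upstream start of AGO1 fell past the test in mip130 RNAi. AGO1 lies on the reverse strand of 2R, with a group of downstream starts at 9841530 to 9841593 and an upstream start at 9845594, 4001 bp away. Transcripts from the upstream start had 40.2 and 38.8 FPKM in mip40, 30.0 and 27.7 FPKM in mip120, 23.9 and 19.8 FPKM in mip130 and 43.6 FPKM in E2F2 RNAi libraries, against 35.0 and 46.6 FPKM in GFP libraries. Transcripts from the downstream starts had 57.0 and 49.0 FPKM in mip40, 42.0 and 38.7 FPKM in mip120, 44.7 and 44.3 FPKM in mip130 and 46.1 FPKM in E2F2 RNAi libraries, against 40.1 and 50.4 FPKM in GFP libraries. In mip130 RNAi the upstream start lay below both GFP libraries and the downstream starts lay between them.

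The upstream start fell by 0.86 ± 0.15 in mip130 RNAi (limma adjusted p = 0.0118), and the downstream starts changed by -0.01 (adjusted p = 0.949). In mip120 RNAi the upstream start changed by -0.47 (adjusted p = 0.0674). The upstream start supplied 39.7% and 42.5% of AGO1 in mip40, 39.9% and 38.7% in mip120, 33.5% and 28.6% in mip130 and 47.7% in E2F2 RNAi, against 43.6% and 46.4% in GFP libraries. The fall of the upstream start in mip130 RNAi held in 15 of 16 alternatives and was lost without mip130 replicate 2 (adjusted p = 0.0693). The difference between these AGO1 starts was not tested, and their FPKM are estimates that share reads. At the downstream starts AGO1 lies 107 bp from the divergent gene mRpL53, which the RefSeq gene table lists as overlapping AGO1, as does CG33155, and without a stated strand setting reads in such an overlap cannot be told apart.

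**Figure D3:**
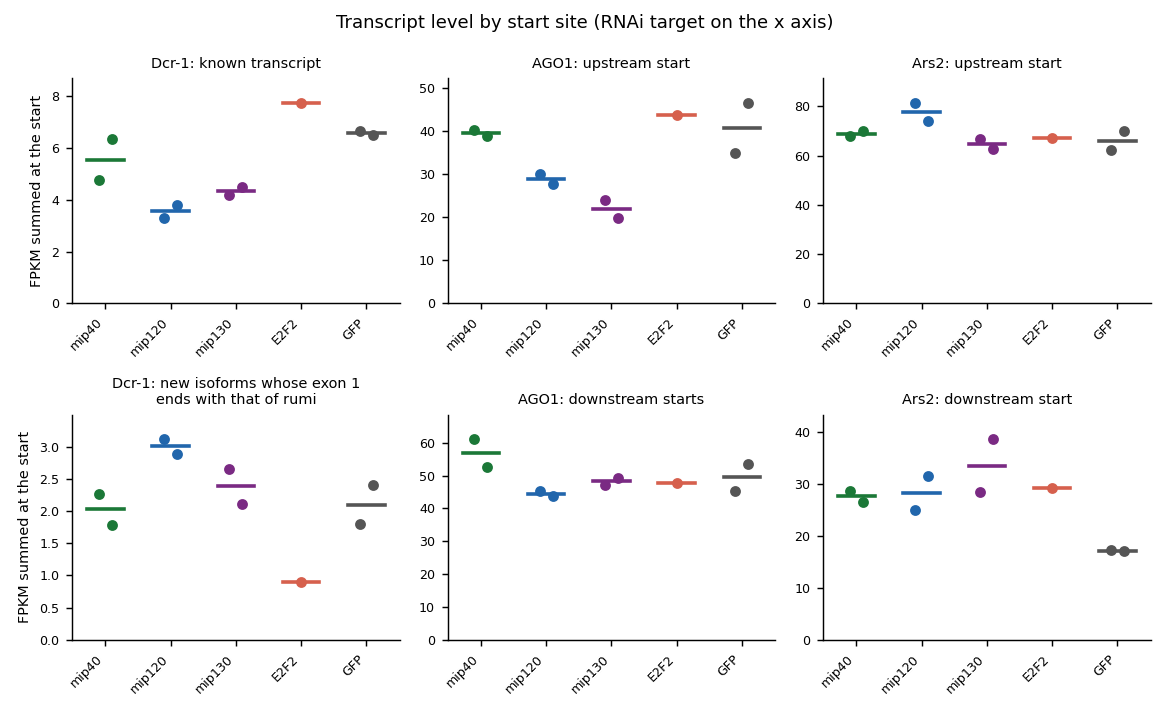
FPKM by library for the start-site groups of Dcr-1, AGO1 and Ars2, on linear axes from 0, with RNAi groups left of GFP and short lines at group means. All other AGO1 starts are summed as downstream. The known Dcr-1 start and the upstream AGO1 start are lower in mip130 RNAi than in GFP libraries, and the downstream Ars2 starts are higher in all 7 RNAi libraries.

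Dcr-2, the Dicer that cuts long dsRNA, passed in no comparison with GFP. It had 25.5 and 27.6 FPKM in mip40, 24.8 and 23.4 FPKM in mip120, 26.7 and 29.3 FPKM in mip130 and 31.7 FPKM in E2F2 RNAi libraries, against 26.9 and 28.1 FPKM in GFP libraries. Its changes were between -0.18 ± 0.07 in mip120 (limma adjusted p = 0.0914) and 0.20 ± 0.09 in E2F2 RNAi (0.187). Against the mean of the mip groups it was higher in E2F2 RNAi by 0.27 ± 0.08 (adjusted p = 0.0438), a call that held in 4 of 16 alternatives and was lost under median-ratio scaling (0.15) and quantile normalization (0.141). It was also lost without mip40 replicate 1, either mip120 library, mip130 replicate 1 or either GFP library, with adjusted p from 0.0597 to 0.0834. The ratio of Dcr-2 to Dcr-1 was 3.62 and 3.40 in mip40, 3.86 and 3.51 in mip120, 3.91 and 4.43 in mip130 and 3.68 in E2F2 RNAi, against 3.19 and 3.16 in GFP libraries. All 7 RNAi libraries lay above both GFP libraries, with Dcr-1 summed over its known transcript and its new isoforms. This ordering depends on the new isoforms. The known Dcr-1 transcript alone was higher in the E2F2 library (7.74 FPKM) than in GFP libraries (6.64 and 6.49 FPKM).

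r2d2, the loading partner of Dcr-2, differed most between RNAi groups. It had 26.1 and 26.0 FPKM in mip40, 37.9 and 41.3 FPKM in mip120, 30.2 and 31.2 FPKM in mip130 and 39.0 FPKM in E2F2 RNAi libraries, against 33.7 and 30.6 FPKM in GFP libraries. The mip120 and E2F2 libraries lay above both GFP libraries, the mip40 libraries below both, and the mip130 libraries overlapped them. r2d2 rose by 0.29 ± 0.07 in mip120 RNAi (limma adjusted p = 0.0189), and changed by -0.29 ± 0.07 in mip40 (0.053), -0.06 ± 0.07 in mip130 (0.516) and 0.27 ± 0.09 in E2F2 RNAi (0.0907). The mip120 rise was lost without mip120 replicate 2 (adjusted p = 0.115) or GFP replicate 2 (0.0943). The mip40 value passed under quantile normalization (0.0466) and median-ratio scaling (0.0396).

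Between mip40 and mip120 RNAi, 3 members passed, against a background of 25.5%, and r2d2 had the largest difference of them. It was lower in mip40 than in mip120 RNAi by a log2 difference of -0.58 ± 0.07 (limma adjusted p = 0.00313), which stayed past the test in all 16 alternatives. r2d2 was also higher in mip120 than in mip130 RNAi, by 0.36 ± 0.07 (adjusted p = 0.0319), as the only member past that test (background 8.32%). That call was lost without mip40 replicate 1 (0.0503) or any 1 of the 4 libraries compared (0.108 to 0.153). In E2F2 RNAi r2d2 was higher than the mean of the mip groups by 0.29 ± 0.08 (adjusted p = 0.0315), which was lost under median-ratio scaling (0.088) and quantile normalization (0.0865). It was also lost without mip40 replicate 2 (0.0527), mip120 replicate 1 (0.0555), mip130 replicate 1 (0.0621) or mip130 replicate 2 (0.0511).

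Relative to its partner, r2d2 stood at 1.02 and 0.945 times Dcr-2 in mip40, 1.53 and 1.76 times in mip120, 1.13 and 1.06 times in mip130 and 1.23 times in E2F2 RNAi, against 1.25 and 1.09 times in GFP libraries. The mip120 libraries were the highest and the mip40 libraries the lowest of the 9. Its 2 transcripts start 22 bp apart at 7800167 and 7800189 on the forward strand of 2L, and RefSeq lists Cdc14 as overlapping. The transcript from 7800189 had 37.0 and 34.9 FPKM in mip120 and 33.7 and 30.6 FPKM in GFP libraries (0.16 ± 0.09, limma adjusted p = 0.322). That from 7800167 had 0.914 and 6.33 FPKM in mip120 and 0.000929 and 0.000811 FPKM in GFP libraries (1.90 ± 0.70, adjusted p = 0.145). Neither transcript passed in any comparison with GFP, so the mip120 rise is a result of the gene total.

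**Figure D4:**
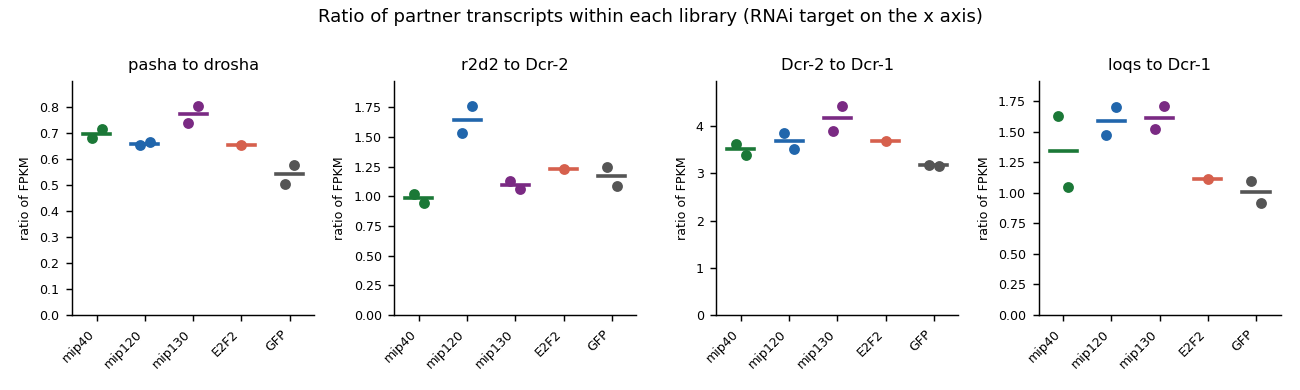
Ratios of FPKM between partner genes in each library, with short lines at group means, on linear axes from 0, with RNAi groups left of GFP. The pasha to drosha and Dcr-2 to Dcr-1 ratios lie above both GFP libraries in all 7 RNAi libraries, and the r2d2 to Dcr-2 ratio is highest in the mip120 libraries. Dcr-1 is the gene total, which includes its new isoforms.

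AGO2, the slicing Argonaute of the siRNA pathway, was the most abundant member and passed no test as a gene. It had 191 and 230.4 FPKM in mip40, 178 and 175 FPKM in mip120, 174 and 172 FPKM in mip130 and 226 FPKM in E2F2 RNAi libraries, against 186 and 212 FPKM in GFP libraries. The mip120 and mip130 libraries lay below both GFP libraries and the E2F2 library above both. The changes were 0.08 ± 0.10 in mip40 (limma adjusted p = 0.678), -0.17 ± 0.10 in mip120 (0.247), -0.20 ± 0.10 in mip130 (0.177) and 0.18 ± 0.13 in E2F2 RNAi (0.375).

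Single AGO2 transcripts moved far more than the gene. All detected AGO2 transcripts start within 18 bp, from 15547195 to 15547213 on the forward strand of 3L. A new isoform from 15547195 had 76.4 and 163 FPKM in mip40, 128 and 112 FPKM in mip120, 106 and 35.0 FPKM in mip130 and 139 FPKM in E2F2 RNAi libraries, against 8.81 and 4.43 FPKM in GFP libraries. A new isoform starting 11 bp downstream had 90.6 and 0 FPKM in mip40, 0 and 0 FPKM in mip120, 0 and 82.4 FPKM in mip130 and 0.407 FPKM in E2F2 RNAi libraries, against 161 and 131 FPKM in GFP libraries. Their levels traded places between replicates of the same group in mip40 and mip130 RNAi.

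At transcript level the isoform from 15547195 rose by 4.05 ± 0.61 in mip120 (limma adjusted p = 0.0159, background 10.9% of transcripts called) and by 3.09 ± 0.61 in mip130 RNAi (adjusted p = 0.0322, background 11.2%). The mip120 call was lost without either mip120 library (0.0751 and 0.0909) or either GFP library (0.0534 and 0.0832), and the mip130 call without any 1 library of the mip120, mip130 or GFP groups (0.0552 to 0.158). The pair summed to 167 and 163 FPKM in mip40, 128 and 112 FPKM in mip120, 106 and 117 FPKM in mip130 and 139 FPKM in E2F2 RNAi libraries, against 169.9 and 136 FPKM in GFP libraries. The sums spread far less than either isoform, so the transcript calls are values of estimates that share nearly all their first exon and not of the AGO2 total.

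**Figure D5:**
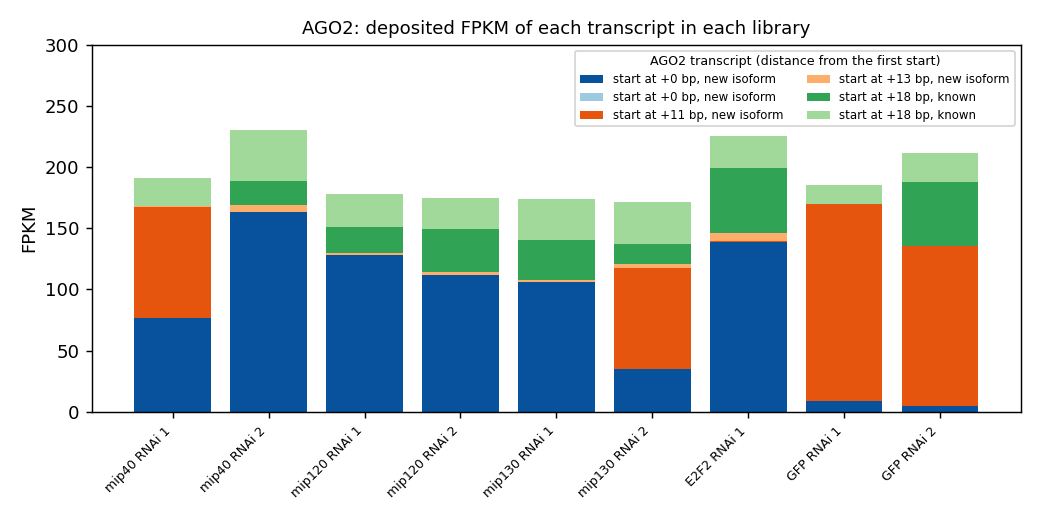
FPKM of AGO2 transcripts stacked by library, with RNAi groups left of GFP, on a linear axis from 0. The bar height is the gene total, between 172 and 230.4 FPKM, while the isoforms starting 11 bp apart trade places between libraries.

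Ars2, the cap-complex partner, rose in mip120 and mip130 RNAi. It had 96.7 and 96.3 FPKM in mip40, 106 and 106 FPKM in mip120, 95.1 and 101 FPKM in mip130 and 96.4 FPKM in E2F2 RNAi libraries, against 79.4 and 87.0 FPKM in GFP libraries. All 7 RNAi libraries lay above both GFP libraries. The change was 0.35 ± 0.07 in mip120 (limma adjusted p = 0.00725), 0.24 ± 0.07 in mip130 (0.0307), 0.21 ± 0.07 in mip40 (0.0953) and 0.21 ± 0.08 in E2F2 RNAi (0.133). The mip120 call held in 15 of 16 alternatives and was lost when only known transcripts were summed (0.122). The mip130 call was lost in that setting too (0.164), and without mip120 replicate 1 (0.055), mip120 replicate 2 (0.0545), mip130 replicate 1 (0.0598), mip130 replicate 2 (0.156) or GFP replicate 1 (0.123).

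By start site, only the downstream starts of Ars2 rose past the test. Ars2 lies on the reverse strand of 2R, with downstream starts at 1972941 to 1972945 and an upstream start at 1973130, 185 bp away. Transcripts from the downstream starts had 28.7 and 26.5 FPKM in mip40, 25.0 and 31.4 FPKM in mip120, 28.4 and 38.6 FPKM in mip130 and 29.1 FPKM in E2F2 RNAi libraries, against 17.2 and 17.1 FPKM in GFP libraries. Those from the upstream start had 67.9 and 69.9 FPKM in mip40, 81.5 and 74.2 FPKM in mip120, 66.7 and 62.6 FPKM in mip130 and 67.3 FPKM in E2F2 RNAi libraries, against 62.2 and 69.9 FPKM in GFP libraries. The downstream starts were higher in every RNAi library than in both GFP libraries, and the upstream start overlapped the GFP range in all groups but mip120.

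The downstream starts rose by 0.68 ± 0.16 in mip120 (limma adjusted p = 0.0309) and by 0.91 ± 0.16 in mip130 RNAi (adjusted p = 0.0133), with 0.66 ± 0.16 in mip40 (0.0986) and 0.73 ± 0.20 in E2F2 RNAi (0.0869). The upstream start changed by 0.23 ± 0.08 in mip120 RNAi (0.0872) and by -0.03 ± 0.08 in mip130 RNAi (0.821). In FPKM, the mip120 mean was 77.8 at the upstream start (GFP mean 66.1) and 28.2 at the downstream starts (GFP mean 17.1). The difference between the starts was not tested, and their FPKM are estimates that share reads. The downstream starts supplied 29.7% and 27.5% of Ars2 in mip40, 23.5% and 29.7% in mip120, 29.9% and 38.1% in mip130 and 30.2% in E2F2 RNAi, against 21.7% and 19.6% in GFP libraries. The mip120 rise was lost without either mip40 library (0.0504 and 0.0509), mip120 replicate 2 (0.149), GFP replicate 1 (0.101) or GFP replicate 2 (0.12), and with only known transcripts (0.45). The mip130 rise was lost without mip130 replicate 2 (0.0573) or GFP replicate 2 (0.0723), and with only known transcripts (0.0633).

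Within the upstream start of Ars2, 1 new isoform fell in some groups in which another had higher estimates. The isoform that fell in mip40 and E2F2 RNAi had 0.0782 and 0.314 FPKM in mip40, 5.19 and 11.2 FPKM in mip120, 5.74 and 4.49 FPKM in mip130 and 0.0240 FPKM in E2F2 RNAi libraries, against 7.73 and 6.30 FPKM in GFP libraries. It fell by 2.75 ± 0.35 in mip40 RNAi (limma adjusted p = 0.0313, background 1.20% of transcripts called) and by 2.96 ± 0.43 in E2F2 RNAi (adjusted p = 0.0353, background 2.00%). Another new isoform with the same first exon had 12.9 and 9.03 FPKM in mip40, 3.78 and 0 FPKM in mip120, 0.00401 and 0.0157 FPKM in mip130 and 7.09 FPKM in E2F2 RNAi libraries, against 0 and 0.0130 FPKM in GFP libraries. Its adjusted p was 0.0972 in mip40 and 0.133 in E2F2 RNAi, so it did not pass. The fall therefore describes 1 estimated isoform and not all transcripts from this start. The mip40 call was lost without either mip40 library (0.151 and 0.098), either mip130 library (0.0826 and 0.0831) or either GFP library (0.17 and 0.132). The E2F2 call was lost without either mip40 library (0.0596 and 0.0588), either mip130 library (0.0744 and 0.0751) or either GFP library (0.119 and 0.121). The upstream start as a whole did not pass in mip40 (0.732) or E2F2 RNAi (0.898).

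Tudor-SN, a nuclease-domain subunit of silencing complexes, passed in no comparison with GFP. It had 177 and 172 FPKM in mip40, 143 and 139.8 FPKM in mip120, 156 and 173 FPKM in mip130 and 178 FPKM in E2F2 RNAi libraries, against 162 and 160.3 FPKM in GFP libraries. The mip40 and E2F2 libraries lay above both GFP libraries, the mip120 libraries below both, and the mip130 libraries on either side. Its change was -0.19 ± 0.07 in mip120 RNAi (limma adjusted p = 0.0679) and 0.11 ± 0.07 in mip40 RNAi (0.337). The difference between mip40 and mip120 RNAi passed at 0.30 ± 0.07 (adjusted p = 0.0205), with the higher level in mip40. It was lost without mip40 replicate 1 (0.0885), mip120 replicate 1 (0.073) or mip120 replicate 2 (0.114), under quantile normalization (0.0946) and with only known transcripts (0.106). Transcripts from its main starts at 264380 and 264748 on the reverse strand of 3L, 368 bp apart, contributed similar amounts, and RefSeq lists wac and a pair of small nucleolar RNAs as overlapping.

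The partners of these members were read from lists of known pathway genes. Calls of single list genes, hairpin genes and neighbouring genes come from the main fit. Their stability in the alternatives was not examined gene by gene, and many lie close to the threshold. Of 20 genes for small RNA biogenesis and loading, 0 were called in mip40 RNAi in limma (3 at an unadjusted p below 0.05), 2 higher and 4 lower in mip120, 1 higher and 0 lower in mip130, and 3 higher and 0 lower in E2F2 RNAi. The share of all genes called higher and lower was 5.69% and 3.51% in mip40, 17.6% and 18.9% in mip120, 19.3% and 16.9% in mip130, and 9.28% and 2.72% in E2F2 RNAi. The median change of the list was 0.11, -0.04, -0.04 and 0.14 in mip40, mip120, mip130 and E2F2 RNAi, beside 0.01, -0.04, 0.01 and 0.08 over all tested genes.

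Hen1, which methylates the ends of AGO2-bound small RNAs, had the largest change of the list. It had 6.90 and 6.11 FPKM in mip40, 3.03 and 3.48 FPKM in mip120, 4.94 and 5.97 FPKM in mip130 and 9.14 FPKM in E2F2 RNAi libraries, against 8.24 and 6.37 FPKM in GFP libraries. It fell in mip120 RNAi by 0.96 ± 0.14 (limma adjusted p = 0.0029). Hsp83 and Hop, which belong to the Hsp90 chaperone machinery that opens Argonaute for loading, also fell in mip120 RNAi, while Hsc70-4 (-0.02, adjusted p = 0.815) and Droj2 (0.10, 0.206) of that machinery did not pass. Hsp83 averaged 779 ± 27.3 FPKM there and 1030.0 ± 67.3 FPKM in GFP libraries (-0.40 ± 0.08, adjusted p = 0.0078), and its co-chaperone Hop 240.2 ± 1.50 FPKM and 302 ± 1.13 FPKM (-0.33 ± 0.06, adjusted p = 0.00729). In E2F2 RNAi Hop rose by 0.32 ± 0.08 (adjusted p = 0.0425). trsn, a subunit of the C3PO nuclease that removes the cleaved strand of the siRNA duplex, fell in mip120 RNAi to 96.7 ± 1.88 FPKM, against 127 ± 0.625 FPKM in GFP libraries (-0.39 ± 0.08, adjusted p = 0.00975).

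Besides Hop, the higher calls included Ranbp21, Tailor, blanks and Cbp80. Ranbp21, an exportin, rose in mip120 RNAi to 13.8 ± 0.232 FPKM, against 10.9 ± 0.232 FPKM in GFP libraries (0.32 ± 0.10, limma adjusted p = 0.0479). Tailor, which adds uridines to microRNA precursors and is listed as CG1091, rose in mip130 RNAi to 34.3 ± 1.25 FPKM, against 29.0 ± 1.38 FPKM (0.23 ± 0.07, adjusted p = 0.0415), and it also rose in mip120 RNAi (0.30, adjusted p = 0.0169). In E2F2 RNAi blanks, a dsRNA-binding protein gene known from the testis, rose to 2234 FPKM, against 1632 ± 16.0 FPKM in GFP libraries (0.45 ± 0.10, adjusted p = 0.0361). Cbp80, the large subunit of the cap-binding complex that Ars2 joins, had 41.5 FPKM there, against 32.4 ± 0.0361 FPKM (0.34 ± 0.08, adjusted p = 0.0379).

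Downstream of the Argonautes, 20 genes for silencing effectors, deadenylation and decapping gave 1 higher and 0 lower in mip40, 2 higher and 7 lower in mip120, 2 higher and 6 lower in mip130, and 2 higher and 0 lower in E2F2 RNAi. Of all tested genes, 5.69% were called higher and 3.51% lower in mip40, and 17.6% and 18.9% in mip120. In mip130 RNAi 19.3% and 16.9% were called, and in E2F2 RNAi 9.28% and 2.72%. The median change of the list was 0.03, -0.13, -0.10 and 0.16 in that order, beside 0.01, -0.04, 0.01 and 0.08 over all tested genes. Ge-1, a scaffold of the decapping complex, had 76.7 and 77.9 FPKM in mip40, 72.2 and 71.0 FPKM in mip120, 70.9 and 74.4 FPKM in mip130 and 81.7 FPKM in E2F2 RNAi libraries, against 57.1 and 57.7 FPKM in GFP libraries. It rose in all 4 comparisons, by 0.42 ± 0.05 in mip40 (limma adjusted p = 0.00529), 0.31 ± 0.05 in mip120 (0.00494), 0.33 ± 0.05 in mip130 (0.00462) and 0.50 ± 0.07 in E2F2 RNAi (0.00681).

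Some other decapping and deadenylation genes fell in the mip120 and mip130 groups. tral, a decapping activator, fell by 0.43 ± 0.09 in mip120 (limma adjusted p = 0.0122) and by 0.36 ± 0.09 in mip130 RNAi (0.0228). PAN3, the deadenylase subunit listed as CG11486, fell by 0.36 ± 0.11 in mip120 (0.0367) and by 0.46 ± 0.11 in mip130 RNAi (0.0171). In mip130 RNAi the decapping factor Patr-1 fell to 34.5 ± 1.71 FPKM, against 48.6 ± 0.871 FPKM in GFP libraries (-0.49 ± 0.06, adjusted p = 0.00188), and the decapping enzyme Dcp2 to 47.0 ± 2.75 FPKM, against 64.3 ± 6.75 FPKM (-0.44 ± 0.08, adjusted p = 0.00794). Both also fell in mip120 RNAi, Patr-1 by 0.27 ± 0.06 (0.0148) and Dcp2 by 0.26 ± 0.08 (0.0447). gw, whose product is the direct silencing partner of AGO1, fell by 0.31 ± 0.06 in mip120 (0.00865) and by 0.30 ± 0.06 in mip130 RNAi (0.0107), and is named here after its values were seen. twin, a catalytic subunit of the CCR4-NOT deadenylase, fell in mip120 RNAi by 0.35 ± 0.07 (adjusted p = 0.00807). Not10, a subunit of the same complex listed as CG18616, rose by 0.63 ± 0.08 in mip120 (0.00157) and by 0.42 ± 0.08 in mip130 RNAi (0.00828), and Pop2, another of its catalytic subunits, rose by 0.33 ± 0.07 in E2F2 RNAi (0.0248).

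Genes for the uptake of dsRNA were read beside the same backgrounds of all genes called, 9.20% in mip40, 36.5% in mip120, 36.2% in mip130 and 12.0% in E2F2 RNAi. Of 10, 0 were called in mip40 and in E2F2 RNAi in limma (1 and 2 at an unadjusted p below 0.05), 2 lower in mip120, and 1 higher and 1 lower in mip130 RNAi, with medians of 0.00, 0.09, -0.18 and 0.01 in the order mip40, E2F2, mip120 and mip130. CG4572, a carboxypeptidase-like gene implicated in the spread of dsRNA, had 60.9 and 56.3 FPKM in mip40, 36.8 and 40.2 FPKM in mip120, 59.3 and 62.0 FPKM in mip130 and 68.1 FPKM in E2F2 RNAi libraries, against 75.9 and 69.2 FPKM in GFP libraries. It fell by 0.90 ± 0.08 in mip120 (limma adjusted p = 3.4e-04) and by 0.25 ± 0.08 in mip130 RNAi (adjusted p = 0.0424). alpha-Adaptin, a clathrin adaptor subunit, fell by 0.27 ± 0.06 in mip120 RNAi (0.0138), and lt, a vesicle-trafficking gene, rose by 0.27 ± 0.09 in mip130 RNAi (0.0479).

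Of the PIWI-clade Argonautes, which carry piRNAs in the germ line, piwi rose in all 3 mip groups. It averaged 6.90 ± 0.332 FPKM in mip40, 12.6 ± 0.0129 FPKM in mip120 and 18.2 ± 1.41 FPKM in mip130 RNAi, against 0.598 ± 0.0184 FPKM in GFP libraries, with rises of 2.30, 3.09 and 3.58 (limma adjusted p = 2.2e-05, 4.5e-06 and 2.4e-06). AGO3 rose by 0.55 ± 0.12 in mip130 (adjusted p = 0.0147) and by 0.64 ± 0.15 in E2F2 RNAi (0.04), and aub fell by 0.52 ± 0.08 in mip120 RNAi (0.00321). piwi changed by 0.18 ± 0.11 in E2F2 (0.292), AGO3 by 0.09 ± 0.12 in mip120 (0.606) and aub by -0.22 ± 0.08 in mip130 RNAi (0.0734). The sum of the germ cell markers given above was higher in every RNAi library than in both GFP libraries. The median log2 change of these markers was 1.27 in mip40, 1.62 in mip120, 2.14 in mip130 and 0.23 in E2F2 RNAi. In E2F2 RNAi vas rose by 2.81 and nos by 1.43, while osk changed by 0.23, zpg by 0.17 and bam by -0.06. The part of the germ cell markers in the changes of piwi, AGO3 and aub was not tested.

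Members called in at least 2 comparisons with GFP were set beside all other tested genes, by the root mean square (RMS) difference of centred log2(FPKM + 1) over the 9 libraries. Dcr-1 was most like RnpS1 (RMS 0.037) and Appl (0.040), where its own spread was 0.156. drosha was most like CG14641 (0.040) and Incenp (0.042), with its own spread at 0.174. Ars2 was most like l(1)G0020 (0.037) and Pmm45A (0.046), with its own spread at 0.124. None of these is a gene of the machinery lists, and the likeness is a description over libraries that share their controls.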

How the data were processed

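The 9 RNA libraries in 5 groups were used, and the 9 chromatin samples and 1 naked DNA sample were not. For each library the authors deposited FPKM per transcript, without counts. Cufflinks, Cuffnorm, TopHat2 2.0.12 and Bowtie 1.1.1 are listed in the submitters' processing notes. The genome build, annotation release, strand setting and parameters are not given there. The 4 deposited columns of group means were not used. FPKM were summed per gene over known transcripts, new isoforms and other overlaps, and per start-site group (starts at most 100 bp apart), a level added after the data were seen. The 7835 genes that reached FPKM 1 in 2 or more libraries were tested in limma 3.58.1 (R 4.3.3) on log2(FPKM + 1), with 1 model of 5 groups, an intensity trend and adjusted p (Benjamini-Hochberg) below 0.05 as the call. This scale understates changes of low genes. The model had 4 residual and 2.77 prior degrees of freedom. It was run on simulated data for mip130 RNAi against GFP only, as a check on the direction of log2 changes of 1. Error rates for smaller changes or for the single E2F2 library are not known from it. Alternatives changed the pseudocount, filter, scaling, groups fitted and transcript classes, added a replicate block or left out each library. The members, gene lists and the rule for named genes (all members, the targeted genes, per list up to 5 called genes with the largest change, and the 2 genes most like members called at least 2 times) were chosen with earlier results of these data known. Names and overlapping genes come from RefSeq tables (Release 6), which gave no positions here. No sequence of the members is printed.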

Additional observations from a re-analysis of the deposited data

Results flagged for a closer look

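In 9 cases a member's change differed between RNAi groups by the limma test of the difference itself. Of the 10 members 3 passed between mip40 and mip120, and 1 each between mip40 and mip130 and between mip120 and mip130. In E2F2 against the mip groups 4 passed. Of all tested genes 25.5%, 25.0%, 8.32% and 29.2% passed in that order, so the count does not set the members apart. r2d2 was lower in mip40 than in mip120 RNAi (log2 difference -0.58, with 2 of 2 mip40 libraries below both mip120 libraries), higher in mip120 than in mip130 RNAi (0.36) and higher in E2F2 RNAi than in the mean of the mip groups (0.29). AGO1 was higher in mip40 RNAi than in mip120 (0.39) and mip130 RNAi (0.45), and Tudor-SN was higher in mip40 than in mip120 RNAi (0.30). In E2F2 RNAi drosha (0.47), pasha (0.35) and Dcr-2 (0.27) were higher than in the mean of the mip groups, each with a single E2F2 library. The drosha difference of 0.47 and the r2d2 difference of -0.58 passed in all 16 alternatives, with adjusted p of at most 0.0209 and 0.0304. The causes of these differences were not tested. No group had the 4 libraries that a test for single outlying libraries needs.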

How the results depend on the processing

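Depth is unknown, so what FPKM cannot resolve is not known per gene. The median change of all genes moved by less than 0.1 under every rescaling. Called members kept their direction in all 16 alternatives. Counts over all genes or transcripts, and over members, moved as follows; the cause was not tested. With only known transcripts, genes called in mip40 RNAi numbered 444 (721 as reported), and member transcripts 0 in mip40, 1 in mip120, 1 in mip130 and 0 in E2F2 RNAi (1, 2, 2 and 1 as reported). Under median-ratio scaling 1 member passed in mip40, 0 in E2F2 and 1 in E2F2 against the mip groups, with 1 member transcript in mip120. Under quantile normalization 1 member passed in mip40, 0 in E2F2, 1 between mip40 and mip120, 2 between mip40 and mip130 and 1 in E2F2 against the mip groups, with 1 member transcript in mip120. The split of called genes into higher and lower moved with scaling. In mip130 RNAi it was 1513 and 1327 as reported and 1307 and 1703 under quantile normalization, and in mip120 RNAi 1379 and 1478 as reported and 1540 and 1298 under median-ratio scaling. It was 727 and 213 in E2F2 RNAi as reported, 421 and 269 under quantile normalization and 487 and 296 under median-ratio scaling. In E2F2 against the mip groups it was 1527 and 762, 1076 and 958, and 985 and 1078 in that order. Between mip40 and mip120 it was 1124 and 877 as reported and 894 and 1050 under median-ratio scaling. Between mip120 and mip130 it was 265 and 387, 405 and 397, and 401 and 364. Without a filter 2 members passed in mip130, 0 in E2F2, 0 between mip40 and mip130 (1292 genes), 0 between mip120 and mip130 (421 genes) and 2 in E2F2 against the mip groups, with 0, 1 and 0 member transcripts in mip40, mip120 and mip130, and 972 transcripts in E2F2 RNAi. With a pseudocount of 0.1, 583 transcripts and 2 member transcripts passed in E2F2 RNAi. With only the groups compared in the model, 348 genes passed in mip40, 2 members in mip130, 0 in E2F2 and 0 between mip120 and mip130. Transcripts then numbered 9, 906, 724 and 6 in mip40, mip120, mip130 and E2F2, with 0 member transcripts in mip40 and 0 in mip130.

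The labels do not state whether replicates of the same number were prepared together. Differences between replicates correlated from -0.13 to 0.02 between groups. No strong shared effect was thus seen, but such correlations cannot tell how the libraries were prepared. With a replicate block 414 genes passed in mip40, 411 in E2F2, 1272 between mip40 and mip130, 211 between mip120 and mip130 and 1472 in E2F2 against the mip groups. Members then numbered 2 in mip130, 0 in E2F2, 0 between mip40 and mip130, 0 between mip120 and mip130 and 2 in E2F2 against the mip groups. Transcripts numbered 77, 900, 775 and 45, and member transcripts 0, 1, 0 and 0, in mip40, mip120, mip130 and E2F2.

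Leaving out 1 library at a time gave 306 to 537 genes in mip40, 1590 to 2883 in mip120, 1434 to 2818 in mip130, 333 to 950 in E2F2, 527 to 1892 between mip40 and mip120, 197 to 1904 between mip40 and mip130, 69 to 609 between mip120 and mip130 and 1716 to 2314 in E2F2 against the mip groups. Members numbered 0 to 0, 1 to 4, 0 to 3, 0 to 1, 1 to 3, 0 to 1, 0 to 1 and 1 to 5 in the same order. Transcripts numbered 59 to 105, 335 to 1566, 232 to 1490 and 53 to 259 in mip40, mip120, mip130 and E2F2, and member transcripts 0 to 2, 0 to 3, 0 to 2 and 0 to 2.

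Changes that reversed were not past the test. In mip40 RNAi AGO1 was -0.030 with known transcripts and -0.059 to 0.26 with 1 library left out (negative without GFP replicate 1). In that leave-one-out AGO2 was -0.055 to 0.21 (negative without mip40 replicate 2 and, at -0.017, without GFP replicate 1), Dcr-2 -0.10 to 0.0023 and loqs -0.029 to 0.37 (both reversed without mip40 replicate 1). In mip120 AGO2 was 0.63 with known transcripts and pasha -0.10 to 0.028 (positive without GFP replicate 2). In mip130 AGO2 was 0.73 and Tudor-SN -0.0051 with known transcripts, and leaving out 1 library gave Tudor-SN -0.049 to 0.098 and Dcr-2 -0.043 to 0.089 (both negative without mip130 replicate 2, Dcr-2 also, at -0.0055, without GFP replicate 1) and r2d2 -0.13 to 0.0044 (positive without GFP replicate 1). In E2F2 AGO1 was -0.11 under quantile normalization, -0.062 under median-ratio scaling and -0.13 to 0.19 with 1 library left out (negative without GFP replicate 1), and Dcr-1 was 0.21 with known transcripts, 0.026 with a replicate block and -0.039 to 0.028 with 1 library left out (positive without GFP replicate 2).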

Other observations

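The substrates of the microRNA enzymes were hardly visible in these oligo-dT libraries. Of 225 microRNA hairpin genes in the table, 205 were listed at 0 in every library, 14 were tested and 7 passed in at least 1 comparison with GFP, where 53.2% of all tested genes did. mir-2493 fell by 0.64 in mip120 (limma adjusted p = 0.00463) and by 0.80 in mip130 RNAi (0.00236), with 10.4 and 10.7 FPKM in mip120 and 10.3 and 8.32 FPKM in mip130 libraries, against 16.1 and 17.9 FPKM in GFP libraries. mir-4978 fell by 0.76 in mip120 (0.0125) and by 0.57 in mip130 RNAi (0.0349), and mir-2b-2 rose by 1.20 in mip120 RNAi (0.0129), with 24.6 and 37.2 FPKM against 10.5 and 15.2 FPKM in GFP libraries. The other calls rest on values listed at 0. mir-87 had 11.1 and 10.0 FPKM in mip120 libraries, mir-283 had 20.1 and 45.4 FPKM in mip130 libraries and mir-4945 had 35.6 FPKM in the E2F2 library, each listed at 0 in both GFP libraries. mir-967 was listed at 0 in both mip40 libraries and the E2F2 library, against 42.5 and 29.9 FPKM in GFP libraries. Hairpin genes are short and often lie in longer transcripts, and no level of a mature microRNA was measured.

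Several members have a neighbour on the opposite strand whose start lies within 1000 bp, a set of genes chosen after the values were seen. CG6985, 59 bp from the known Dcr-1 start, had 14.4 and 13.2 FPKM in mip40, 15.3 and 15.1 FPKM in mip120, 15.8 and 15.3 FPKM in mip130 and 16.9 FPKM in E2F2 RNAi libraries, against 11.0 and 10.9 FPKM in GFP libraries. It rose in all 4 comparisons, by 0.31 ± 0.07 in mip40 (limma adjusted p = 0.0345), 0.44 ± 0.07 in mip120 (0.00289), 0.47 ± 0.07 in mip130 (0.00285) and 0.58 ± 0.08 in E2F2 RNAi (0.0084), where Dcr-1 fell in mip120 and mip130. rnh1, 40 bp from the drosha start, fell with drosha in mip120 (-0.24 ± 0.06, adjusted p = 0.018) and mip130 RNAi (-0.32 ± 0.06, 0.00696). LKR, 272 bp from the r2d2 start, fell by 0.37 ± 0.07 in mip120 RNAi (0.00752), where r2d2 rose. CG7023, 308 bp from the upstream Dcr-1 start, rose by 0.58 ± 0.09 in the single E2F2 library. mRpL17, 31 bp from a Tudor-SN start, passed in none of the 4 comparisons with GFP. The same held for mRpL53, 107 bp from an AGO1 start, and CG33155, 280 bp from another. Of all tested genes 9.20% passed in mip40, 36.5% in mip120, 36.2% in mip130 and 12.0% in E2F2 RNAi. Whether neighbours move with or against members more often than other genes was not tested.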
